A study of Rattus norvegicus with 232 samples.

Results

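The RNA of 9 genes known from cerebellar neurons was followed across the brains of inbred rats. They were chosen by name and not by a threshold on these values, and all 9 are among the 20859 genes of the table used, which joins reads to RefSeq genes. Their names rest on textbook knowledge of where they are made: 4 mark Purkinje cells (Pcp2, Calb1, Car8 and Itpr1) and 5 mark granule cells or their lineage (Cbln1, Cbln3, Zic1, Neurod1 and Barhl1). The question was how far the 9 genes moved together from animal to animal, how far they differed between strains, and whether the Purkinje and the granule genes went separate ways.

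The rats were untreated males of the Hybrid Rat Diversity Panel, a set of inbred strains, and no group carried a transgene or a drug. Total RNA depleted of ribosomal RNA was sequenced from whole brain, and the methods of the study state, for the strains it covered, that brains were split sagittally with a single side used. They give the same age range for all of those strains. Tissue of the HXB/BXH family and its progenitors was kept in liquid nitrogen. The other classic strains it covered came from commercial suppliers, and their brains went into RNAlater. Source and storage thus cannot be told apart from strain or panel. The table held 214 libraries of 197 animals in 74 strains. The strains fall into the HXB/BXH recombinant inbred family, which descends from BN-Lx/Cub and SHR/OlaIpcv (30 strains, 88 animals), the FXLE/LEXF family (19 strains, 43 animals) and classic inbred strains with the progenitors (25 strains, 66 animals). Of the strains 54 had 3 animals, 15 had 2 and 5 had 1. Levels are read as log2 from their values, so that a difference of 1 is a doubling. Whether they were scaled by gene length is not given in the sources used here, so levels are not compared between genes. Sequencing depth is unknown because the table holds no counts.

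The cerebellar cortex is built around a single type of output neuron, the Purkinje cell, and a vast number of small granule cells whose parallel fibres contact it. Synaptic input to Purkinje cells releases calcium from internal stores through the IP3 receptor, and calcium-binding proteins shape that signal. Granule cells arise from a lineage marked by transcription factors of the Zic, Neurod and Barhl families, and they secrete cerebellins that hold the parallel fibre synapse together. In RNA from a whole brain, fewer cells of a type, a smaller piece of cerebellum and less RNA per cell cannot be told apart. RNA of any member made outside the cerebellum is not told apart either.

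Some libraries stood apart and are named before the results. By the 500 genes that best separated strains, 185 of 192 animals were nearest to their own strain and 7 were nearer to another. The genes were picked with all animals included, which favours closeness to the own strain. HXB17/Ipcv 2 was nearest to LEW/Crl, F344/Stm 1 to F344/NHsd and LEXF2C/Stm 3 to LEXF7B/Stm, while BXH10/Cub 3, BXH6/Cub 3, HXB10/Ipcv 1 and HXB17/Ipcv 1 were nearest to LE/Stm. Liver genes, with a median of 8.55 over animals for the mean of 10 genes, were raised in LE/Stm 2 (17.35), HXB10/Ipcv 1 (12.55), BXH6/Cub 3 (12.05) and HXB20/Ipcv 3 (11.00). LE/Stm 2 was the only LE/Stm animal here. Whether liver RNA made HXB10/Ipcv 1 and BXH6/Cub 3 nearest to it was not tested. The mean of 5 Y-linked genes was lowest in HXB17/Ipcv 2 (7.09) and in the 3 animals labelled LEW/Crl (7.28 to 7.41), against a median of 7.91. Counts without LE/Stm and the 8 other animals named here that are not LEW/Crl are given where the count moved. Without LEW/Crl and LE/Stm, 3 members had a strain effect (36.7% of all genes), as with all animals, and no other count of member genes moved. Transcripts were not fitted without them. LEW/Crl and those 8 animals were not left out together.

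Upstream sequence from RefSeq (build GRCr8, from before to just after the gene's start) was held for 3 of the 9 genes and is shown because these genes moved together, as described further on. Capitals mark 2 motifs searched on both strands: CANNTG, the E-box that factors of the Neurod1 type are known to bind, and AGGTCA, a core bound by nuclear receptors such as Rora, which is active in Purkinje cells.
Pcp2, chr12:6481258-6481557, strand -: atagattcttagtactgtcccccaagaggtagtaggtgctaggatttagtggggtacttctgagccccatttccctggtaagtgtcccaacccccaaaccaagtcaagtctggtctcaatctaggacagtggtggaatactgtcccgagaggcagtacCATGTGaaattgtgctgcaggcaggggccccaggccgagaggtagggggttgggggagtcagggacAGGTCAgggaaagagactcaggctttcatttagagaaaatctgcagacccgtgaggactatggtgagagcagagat
Itpr1, chr4:142743190-142743489, strand +: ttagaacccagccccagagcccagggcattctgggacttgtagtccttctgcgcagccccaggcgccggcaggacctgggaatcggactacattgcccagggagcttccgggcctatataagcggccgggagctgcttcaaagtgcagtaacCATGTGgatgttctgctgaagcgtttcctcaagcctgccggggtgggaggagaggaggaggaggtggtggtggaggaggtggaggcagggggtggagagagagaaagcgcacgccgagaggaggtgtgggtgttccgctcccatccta
Neurod1, chr3:84770405-84770704, strand -: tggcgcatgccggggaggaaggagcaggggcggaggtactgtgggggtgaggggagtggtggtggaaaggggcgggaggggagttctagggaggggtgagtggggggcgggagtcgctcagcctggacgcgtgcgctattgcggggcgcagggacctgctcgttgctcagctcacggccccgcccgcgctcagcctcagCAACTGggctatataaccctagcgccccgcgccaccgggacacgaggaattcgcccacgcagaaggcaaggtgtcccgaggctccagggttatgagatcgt
Each window held 1 match to CANNTG, and the Pcp2 window also held 1 match to AGGTCA. No matches overlapped. Of 33469 windows of this length, 72.1% held CANNTG and 16.2% held AGGTCA, so an E-box match is common in any such window. A match is a run of letters and not a site of binding.

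Among the Purkinje genes, Pcp2, a modulator of G protein signalling found almost wholly in Purkinje cells and retinal bipolar cells, had the widest range. It ran from 8.49 to 11.17 with a median of 9.66 over the 197 animals. Calb1, the calcium buffer calbindin, ran from 11.71 to 13.20 (median 12.39). Car8, a carbonic anhydrase-related protein that binds the IP3 receptor and lowers its affinity for IP3, ran from 11.34 to 13.13 (median 12.26). Itpr1, the IP3 receptor itself, which other neurons also make, had the narrowest range, from 14.97 to 15.76 (median 15.38).

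Among the granule genes, Cbln1, the secreted cerebellin that links parallel fibres to Purkinje cells, ran from 10.55 to 11.99 (median 11.23). Cbln3, its partner made by granule cells, ran from 8.69 to 10.75 (median 9.71). The zinc finger factor Zic1 ran from 9.40 to 10.64 (median 9.96), and Neurod1, a basic helix-loop-helix factor of granule cell differentiation that the hippocampal dentate gyrus also makes, from 9.07 to 11.08 (median 10.01). Barhl1, a homeobox factor of the granule lineage, ran from 3.59 to 5.02 (median 4.24). It is the only member that a filter at the median level of the genes, used as an alternative, leaves out.

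**Figure D1:**
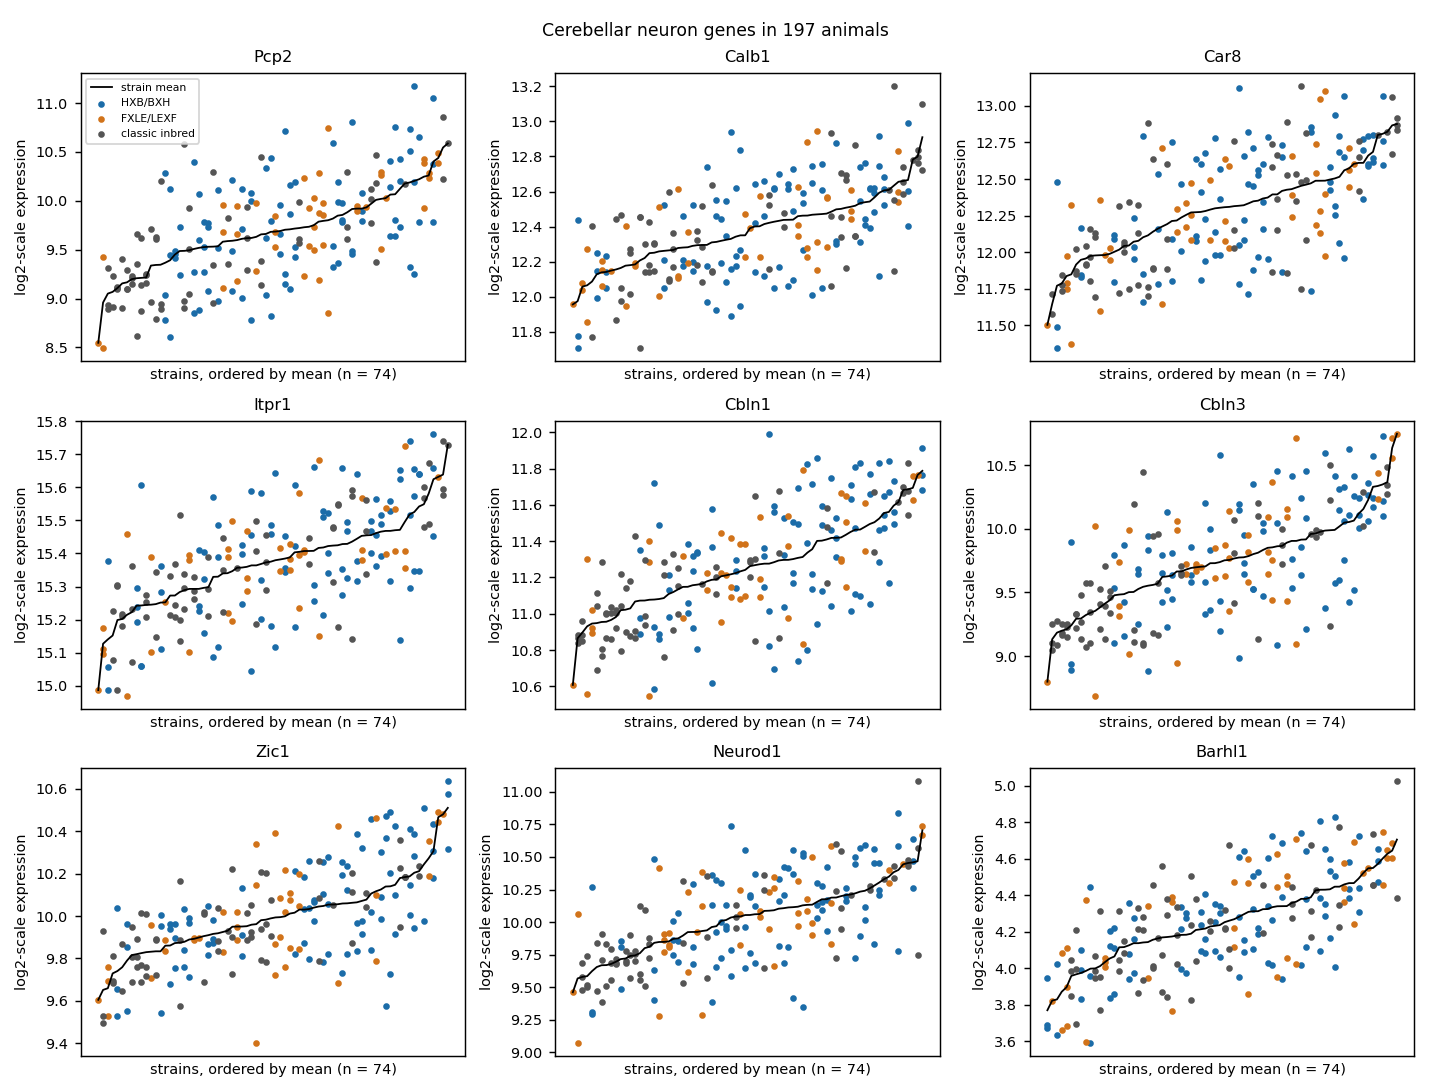
Log2-scale expression of the 9 genes (y axis) in 197 animals, with the 74 strains on the x axis ordered by their mean. Points are animals coloured by panel and the black line joins strain means. The points of a strain often spread over much of the range of the means, most in Pcp2.

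Strain means of the 69 strains with 2 or more animals spanned 3.00-fold for Pcp2, 2.83-fold for Cbln3, 2.35-fold for Car8, 2.20-fold for Neurod1 and between 1.43-fold (Itpr1) and 1.91-fold (Calb1) for the other 5. The within-strain SD was 0.53 for Pcp2, 0.42 for Cbln3, 0.38 for Car8 and 0.16 for Itpr1. On the log2 scale the spans were 2.99 (Pcp2) to 3.91 (Zic1) times this SD. The span expected from so few animals per strain without a strain effect was not computed.

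Among the 69 strains with 2 or more animals, to which the ranks here and in the next paragraph apply, several came up at the same end for genes of both cell types. LEXF1C/Stm had the highest mean for Cbln3 (10.64 ± 0.11, SD, n = 2) and Neurod1 (10.70 ± 0.05, SD, n = 2), and the next to highest for Pcp2, Cbln1 and Zic1. Its 2 animals read 10.55 and 10.72 for Cbln3. LH/MavRrrc led Car8, with 12.84, 12.87 and 12.92, and Itpr1, and BDIX/NemOdaMcwi led Pcp2 (10.23 and 10.86) and Calb1 (12.72 and 13.10). BXH6/Cub was among the 3 highest strains for 6 of the 9 genes, and its animal 3 is one of those that stood apart. Because the genes move together from animal to animal, a single animal can set the rank of its strain in many of them. Pcp2, Calb1 and Car8 had no strain effect that passed in the fit over all strains, given below.

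At the low end of the 69 strains, DA/OlaHsd had 9.05, 9.10 and 9.25 for Cbln3 and was among the 3 lowest for Pcp2, Cbln1, Cbln3 and Neurod1. F344/NCrl had 11.58 and 11.71 for Car8, and F344/NHsd 11.74, 11.78 and 11.84, so that no animal of these F344 substrains reached any LH/MavRrrc animal. Another F344 substrain, F344/Stm, stood higher, at 12.36, 12.67 and 12.15, and its animal 1 is one of those that stood apart. In the labels neither DA/OlaHsd nor any of these F344 substrains shared a batch with LH/MavRrrc, BDIX/NemOdaMcwi or LEXF1C/Stm. Strain and batch thus cannot be told apart here. The lowest strain mean of Pcp2 belonged to LEXF8A/Stm, whose animals at 8.49 and 9.42 enclosed the 3 of DA/OlaHsd at 8.90 to 9.32. Barhl1 had its own order: HXB24/Ipcv was lowest (3.77 ± 0.15, SD, n = 3), COP/CrCrl highest (4.70 ± 0.45, SD, n = 2), and LEXF8A/Stm, low for Pcp2, Calb1, Cbln1 and Neurod1, was next to highest. Of the 5 strains with 1 animal, FXLE13/Stm lay below all 69 strain means for 8 of the 9 genes, all but Barhl1 (Pcp2 at 8.55, Cbln3 at 8.80). BUF/MnaMcwi (Pcp2, 10.59), LE/Stm (Itpr1, 15.73) and LEXF9/Stm (Cbln3, 10.75) each lay above all of them for 1 gene, and none of these has a replicate.

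The strain effect was tested with limma's F-test over all strains, with adjustment over all genes of the table. Of the 9 genes 3 passed, all granule genes, against 37.7% of all genes: Cbln3 (adjusted p = 0.0172), Barhl1 (adjusted p = 0.0249) and Zic1 (adjusted p = 0.0272). None of the 4 Purkinje genes passed in this fit, with adjusted p from 0.0901 (Itpr1) to 0.303 (Calb1), although Itpr1 had an unadjusted p of 0.0418 in limma. The share of the variance that lay between strains, R2, ran from 0.398 (Calb1) to 0.490 (Cbln3), on both sides of the median of all genes at 0.451. With no strain effect an R2 of 0.372 is expected from the numbers of strains and animals. A difference in strain effect between Purkinje and granule genes was not tested.

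The count depended on which animals were used. Without the animals numbered 1 no member passed (15.8% of all genes did), without those numbered 2 there were 6 (14.2%), and without those numbered 3 there was 1 (6255 of 20859 genes). Without 8 animals that stood apart and LE/Stm, a choice made after seeing the data, 4 passed, against 33.5% of all genes. Fitting batch as a covariate left 3 members, but against 54.9% of all genes. The labels put different strains in different batches, so strain and batch are in part confounded. In the earlier v5 table of Ensembl genes 9 passed, the Purkinje genes among them, where 63.9% of all genes did. That table holds 132 animals of 45 strains, and 165 animals of 58 strains are in the v6 table, so the animals, strains and annotation change along with the table and cannot be told apart.

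Within the panels, which share no animals, none of the 9 genes passed in HXB/BXH (19.2% of all genes did) or in FXLE/LEXF (5.08%). The lowest adjusted p there was 0.125 for Barhl1 in HXB/BXH, with R2 of 0.452 and an unadjusted p of 0.0364 (limma), and no other member reached 0.05 unadjusted in either family. In FXLE/LEXF 4 members passed in the v6 table of Ensembl genes, against 18.1% of all genes. In HXB/BXH 2 passed without the animals numbered 2 (9.01% of all genes) and 1 with batch as a covariate (33.1%). In the classic inbred strains 5 passed, against 19.2% of all genes: Cbln1 (R2 0.641, adjusted p = 0.00242, limma F-test), Neurod1 (0.617, 0.00555), Itpr1 (0.623, 0.0125), Cbln3 (0.582, 0.0163) and Car8 (0.560, 0.0291). Those 5 are genes of both cell types. The labels put many of the classic strains in different batches, so strain and batch are in part confounded here too. DA/OlaHsd and F344/NCrl, for example, shared no batch with LH/MavRrrc or BDIX/NemOdaMcwi. No member passed there without the animals numbered 1 (9.71% of all genes did), nor without those numbered 2 (5.11%). Fitting batch as a covariate gave 6 members in these strains, against 16.1% of all genes. There was 1 that passed in the v6 table, against 14.7% of all genes, and there were 8 in the v5 table, against 33.7%. Whether the strain effect differed between panels was not tested.

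The progenitors of the HXB/BXH family did not differ detectably in any of the 9 genes (limma, 4.60% of all genes called). The differences, BN-Lx/Cub minus SHR/OlaIpcv, ran from -0.41 ± 0.27 (SE) for Cbln1 to 0.21 ± 0.31 for Neurod1. At the unadjusted level the smallest p of limma was 0.124, for Cbln1. The 3 BN-Lx/Cub animals were far apart: Neurod1 stood at 11.08, 9.75 and 10.57, and Car8 at 13.13, 11.75 and 12.48, while the 2 SHR/OlaIpcv animals stood at 10.24 and 10.27 for Neurod1 and at 12.53 and 12.35 for Car8. The SHR/OlaIpcv values are means over several libraries, which narrows their spread.

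Libraries of the same animal gave a measure of the technical spread. SHR/OlaIpcv animal 1 had 12 libraries in 12 sequencing batches and animal 4 had 6 in 6 batches, going by strain and replicate number in the labels. Whether these libraries came from 1 RNA extract is not stated. Over the 12 libraries of animal 1, Pcp2 ran from 9.29 to 10.30, Car8 from 11.93 to 13.36 and Cbln3 from 9.33 to 10.98. The SD over these libraries was 0.62 (Pcp2) to 1.16 (Zic1) times the within-strain SD over animals, and over the 6 libraries of animal 4 it was 0.32 (Cbln3) to 1.05 (Barhl1) times. For Calb1, Cbln1, Cbln3, Zic1 and Barhl1 the libraries of animal 1 were thus about as far apart as different animals of a strain.

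**Figure D2:**
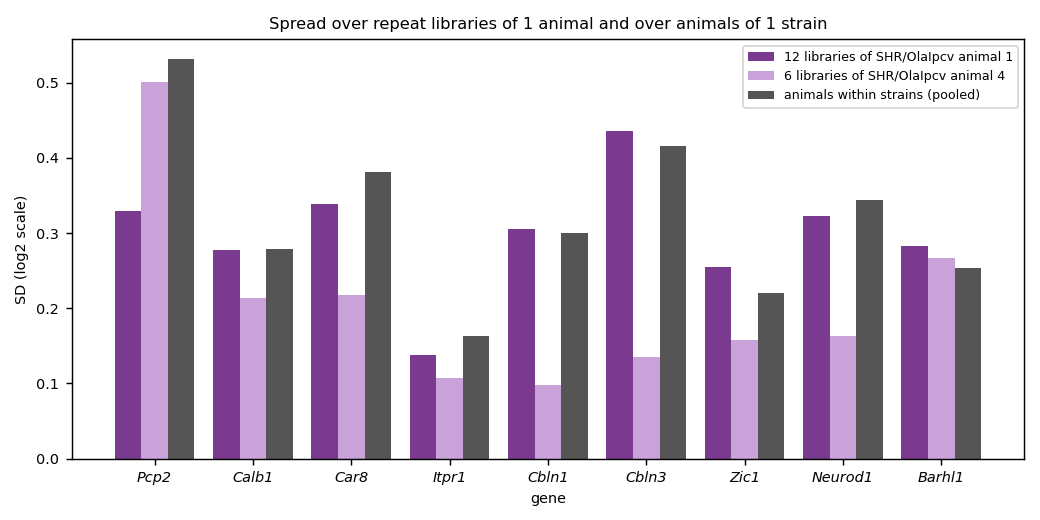
SD of log2-scale expression (y axis, starting at 0) for each of the 9 genes (x axis), over 12 libraries of SHR/OlaIpcv animal 1, over 6 libraries of animal 4 and over animals within strains, pooled. In animal 1 the bar for Pcp2 is 0.62 times that of animals within strains, and for Zic1 it is 1.16 times.

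Between those libraries some pairs of genes moved together and others did not. Over the 12 libraries of animal 1, r was 0.97 between Calb1 and Car8 and 0.95 between Cbln3 and Neurod1, while it was 0.18 between Pcp2 and Calb1. Over the 6 libraries of animal 4 the first 2 pairs had r of 0.98 and 0.86, and Car8 with Neurod1 had -0.11. Pairs of a Purkinje with a granule gene had r from -0.46 to 0.85 (median 0.47) in animal 1 and from -0.49 to 0.96 (median 0.34) in animal 4. These values describe libraries of single animals, in different batches, and carry no test.

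Co-variation over animals was measured on deviations from the strain mean, over 192 animals of 69 strains, so that strain differences do not enter. All values of an animal come from the same library or libraries, which the 2 genes of a pair share. Of 36 pairs 32 passed a two-sided permutation test within strains, adjusted over the 36 pairs, by Pearson's r and by Spearman's rho alike, each with r above 0. The weakest of them had r = 0.23, a size that 17.0% of the pairs among all genes reached above 0 and 33.5% in either direction. The median r of the 36 pairs was 0.67, which 1.49% of the pairs among all genes reached. Calb1 and Car8 stood closest, with r = 0.93 and rho = 0.93 (permutation p = 1e-05 for each, the smallest the permutations can give, adjusted p = 1.29e-05). Cbln3 and Neurod1 followed with r = 0.90 and rho = 0.90, and the same p-values. The 4 pairs that did not pass all held Barhl1: with Calb1 (r = -0.15, rho = -0.17), Car8 (-0.01, -0.04), Itpr1 (0.10, 0.06) and Neurod1 (0.14, 0.13). Barhl1 is a gene of low level. Its SD over the repeat libraries of SHR/OlaIpcv animals 1 and 4 was 1.12 and 1.05 times that over animals within strains. The part of measurement noise in its low r was not tested.

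The classes of pairs overlapped in r. Over pairs of Purkinje genes the median r was 0.68 (6 pairs, 0.52 to 0.93). Purkinje with granule genes had a median of 0.64 (20 pairs, -0.15 to 0.84), and 0.70 over the 16 pairs without Barhl1. Granule with granule genes had a median of 0.76 (10 pairs, 0.14 to 0.90), and 0.80 over the 6 pairs without Barhl1. Itpr1, a Purkinje gene, had r of 0.84 with Cbln3, 0.82 with Neurod1 and 0.80 with Cbln1, above its 0.57 with Pcp2 and 0.71 with Calb1. A difference between classes of pairs was not tested, since the genes are shared between pairs.

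Within the batches given by the labels, 9 batches had 6 to 14 animals in strains with 2 or more of them in that batch, 84 animals in all. They held 3 to 7 such strains each, mostly with 2 animals, whose deviations mirror each other. Each r within a batch thus rests on few independent values, can be large in either direction without any relation, and was not tested. Calb1 and Car8 had r above 0 in 9 of 9 batches (0.01 to 0.98, median 0.92). Cbln3 and Neurod1 did so in 8 of 9 (median 0.94), and Itpr1 and Cbln3 in 9 of 9 (median 0.87). Other pairs turned negative in more batches. Calb1 with Zic1 was above 0 in 5 of 9 (lowest -0.89, median 0.48), and Calb1 with Neurod1 in 6 of 9 (lowest -0.87, median 0.80). Over the 16 pairs of a Purkinje with a granule gene other than Barhl1 the count ran from 5 to 9 batches and the medians from 0.48 to 0.92. It ran from 6 to 9 batches over the 6 Purkinje pairs and from 7 to 9 over the 6 granule pairs. Calb1 and Barhl1 were above 0 in 3 of 9 (median -0.35). Leaving out the 2 animals farthest out moved r of Calb1 and Car8 to 0.93 and that of Cbln3 and Neurod1 to 0.90.

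Strain means gave a similar picture over 69 strains, which are partly related by descent. A mean of few animals also carries the co-variation of those animals, so these values do not stand apart from those within strains. How much of the co-variation of strain means lies between strains was not tested. Again 32 of 36 pairs passed by r, and 33 by rho. The weakest of the 32 had r = 0.26, which 14.3% of the pairs among all genes reached above 0 and 28.4% in either direction. The median of the 36 was 0.58, reached by 2.05% of the pairs among all genes. Calb1 and Car8 had r = 0.91 (rho = 0.93, permutation p = 1e-05, the smallest possible, adjusted p = 1.8e-05). Cbln3 and Neurod1 had r = 0.90 (rho = 0.90, same p-values). Without the 2 strains farthest out these were 0.89 and 0.88. The medians by class were 0.56 for Purkinje pairs, 0.58 across types and 0.75 for granule pairs. Barhl1 with Calb1 (-0.16), Car8 (0.01) and Itpr1 (0.16), and Calb1 with Zic1 (0.19), did not pass by r.

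**Figure D3:**
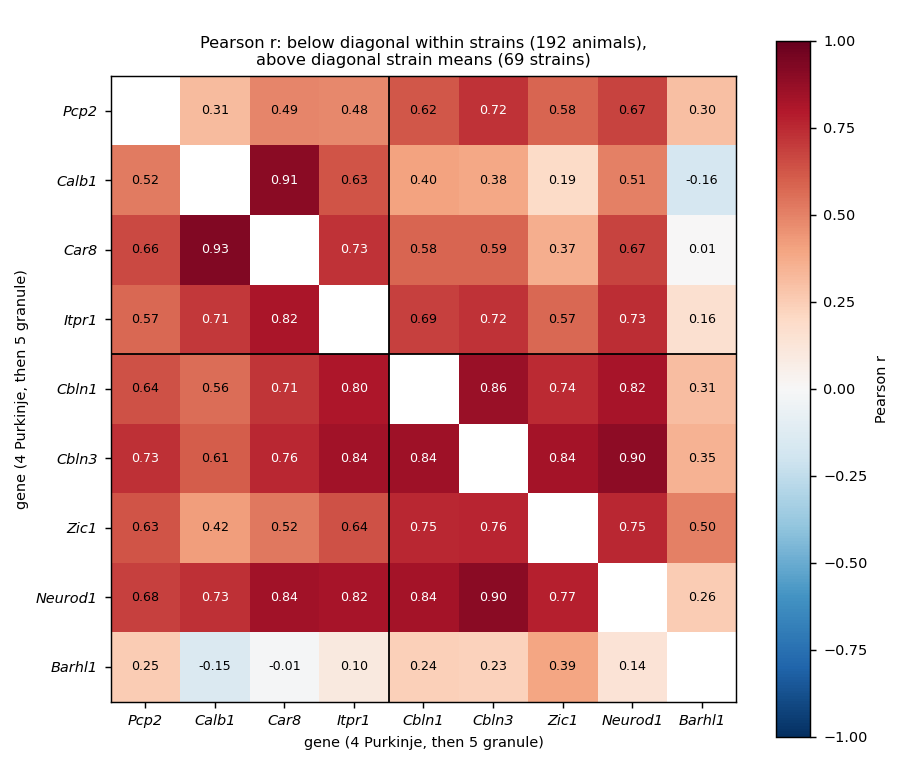
Pearson r for each pair of the 9 genes (both axes, 4 Purkinje then 5 granule genes), below the diagonal for deviations of 192 animals within strains and above it for means of 69 strains. Colour runs from -1 to 1. The Barhl1 row and column are palest, and Calb1 with Car8 (0.93 within strains, 0.91 for strain means) is among the darkest cells.

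Summed over members, the mean of the 4 Purkinje genes ran from 11.67 to 13.17 over animals and the mean of 4 granule genes without Barhl1 from 9.51 to 10.96. These means had r of 0.84 within strains and 0.76 over strain means. Their difference, Purkinje minus granule, ran from 1.63 to 2.77 over animals, with its lowest strain mean in LEXF1C/Stm (1.71) and its highest in LEXF10A/Stm (2.49). The R2 over strains was 0.397 for the Purkinje mean, 0.471 for the granule mean and 0.546 for the difference, given as descriptions without a test.

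Single animals departed from their strain in many of the genes at once. FXLE18/Stm 1 was among the 10 lowest deviations for 8 of the 9 genes and FXLE18/Stm 2, the other animal of that strain, among the 10 highest for 8, which follows in part from a mean of 2 animals. Their values were 8.85 and 10.75 for Pcp2, 9.10 and 10.71 for Cbln3, and 11.64 and 12.71 for Car8. HXB25/Ipcv 2 was among the 10 highest for 8 genes, with Car8 at 13.12. HXB3/Ipcv 2 was among the 10 lowest for 8, with Cbln3 at 8.98, while its Barhl1 stood at 4.72, above the median of all animals.

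To place the members against cerebellar genes that are not members, Gabra6 was taken as a granule cell reference. It encodes a GABA-A receptor subunit found almost wholly in granule cells. It ran from 10.11 to 13.06 (median 11.33), and its own strain effect did not pass (adjusted p = 0.0769, limma). With strain in the fit, 8 of 9 members rose with Gabra6, against 24.0% of all genes with a slope above 0 and 49.1% with a slope either way.

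The steepest slope was that of Car8, a Purkinje gene, at 0.74 ± 0.03 (SE) log2 units per log2 unit of Gabra6. Its r within strains was 0.93 (rho = 0.91, permutation p = 1e-05, the smallest possible, adjusted over 27 relations 1.17e-05), the 3rd highest of 20858 genes. Calb1 had a slope of 0.51 ± 0.02 (r = 0.88, rho = 0.87) and ranked 11th, Neurod1 0.63 ± 0.03 (r = 0.87, rho = 0.85) and ranked 14th. Over all genes the 5th and 95th percentiles of r were -0.42 and 0.50.

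The slopes of the others were 0.70 ± 0.05 for Cbln3, 0.67 ± 0.08 for Pcp2, 0.43 ± 0.04 for Cbln1, 0.26 ± 0.02 for Itpr1 and 0.25 ± 0.03 for Zic1. Barhl1 had -0.01 ± 0.05 (adjusted p = 0.897, limma). The slopes of the 9 members did not differ detectably between panels (lowest adjusted p = 0.202, for Zic1, limma F-test of the interaction), where 0.0288% of all genes did. Unadjusted, Zic1 (p = 0.0264) and Itpr1 (p = 0.0361) fell under 0.05 in that limma test. Car8 had slopes of 0.77, 0.72 and 0.71 in HXB/BXH, FXLE/LEXF and the classic strains. Within batches r of Car8 with Gabra6 was above 0 in 8 of 9 (median 0.94), that of Cbln3 in 9, that of Neurod1 in 6 (lowest -0.35), that of Zic1 in 5 (lowest -0.81) and that of Barhl1 in 4 (median -0.09). The other 4 members had it above 0 in 7 or 8 of 9.

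With another granule reference, Fat2, a cadherin of parallel fibres, the order changed. All 9 members then rose with the reference, against 5.83% of all genes above 0 and 9.11% either way. Cbln1 now stood first of the members, with r = 0.85 (rho = 0.81) and 4th of 20858 genes, then Cbln3 with 0.82. Calb1 had r of 0.36 and Car8 of 0.56, far below their values with Gabra6. Barhl1 rose with Fat2 with a slope of 0.18 ± 0.05 (adjusted p = 0.0143, limma) and r of 0.29. Gabra6 and Fat2, both granule genes, had r of 0.58 with each other.

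**Figure D4:**
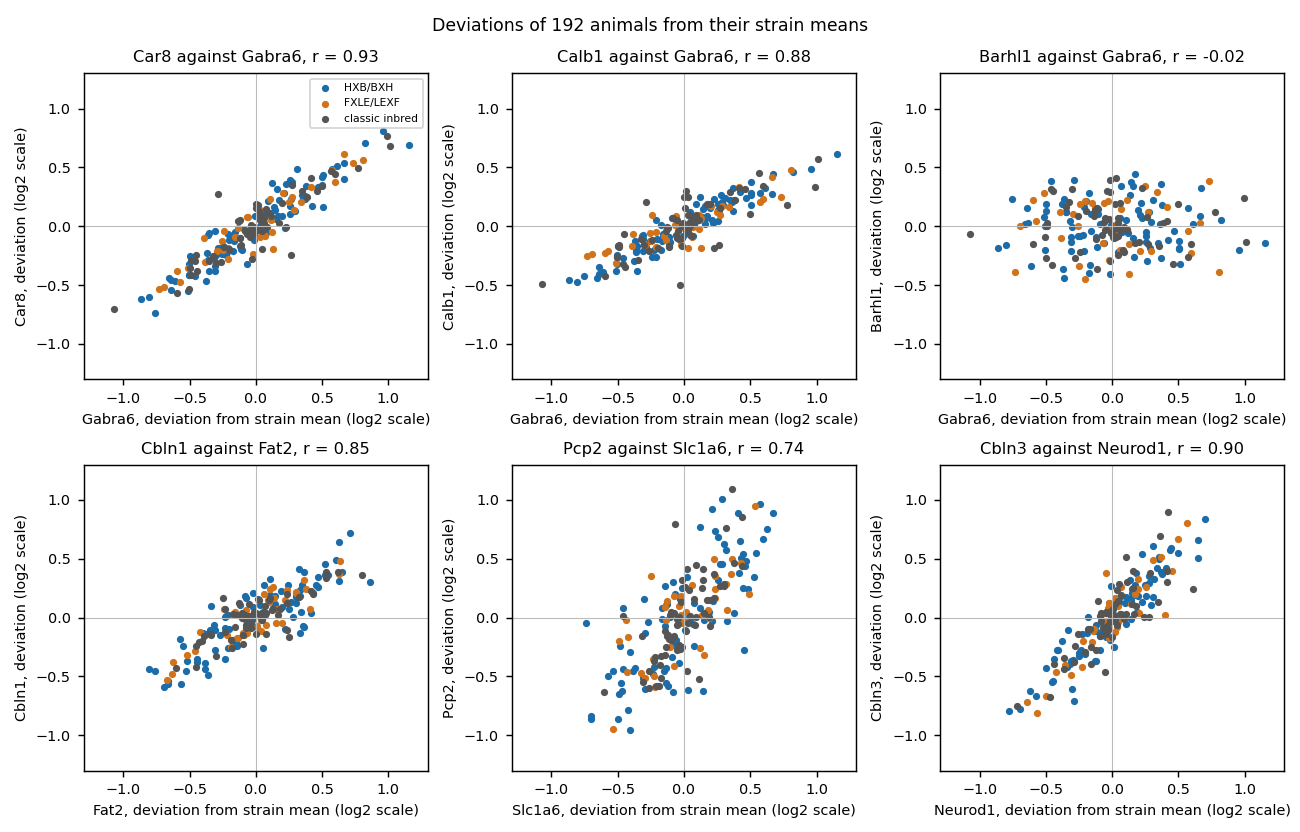
Deviations of 192 animals from their strain means on the log2 scale, for 6 pairs of genes, 1 per panel, with points coloured by panel of strains. Car8 against Gabra6 forms a narrow band (r = 0.93), and Barhl1 against Gabra6 forms a wide cloud (r = -0.02).

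Slc1a6, a glutamate transporter of Purkinje cells and no member, served as a Purkinje reference. Gabra6 and Slc1a6 had r of 0.62 within strains. With both in 1 fit and strain held, 9 members had a slope on Gabra6 that passed, 8 of them above 0, against 29.9% of all genes above 0 and 60.8% either way. On Slc1a6 8 passed, all above 0, against 28.7% above 0 and 58.5% either way. On Slc1a6 5 passed in the v5 table, against 34.8% of all genes either way.

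By size the 2 slopes did not follow the cell type that the members are named for. The slopes are per log2 unit, and the within-strain SD was 0.48 for Gabra6 and 0.36 for Slc1a6, so their sizes are not directly comparable. Fat2, a granule gene, had r of 0.76 with Slc1a6 and 0.58 with Gabra6. The references thus do not cleanly part the cell types, and this fit cannot decide whether the members sort by cell type. Of the Purkinje genes, Pcp2 went with Slc1a6 (0.86 ± 0.11 against 0.26 ± 0.08 on Gabra6) and Itpr1 had 0.25 ± 0.03 and 0.14 ± 0.02. Car8 had the larger slope on the granule reference (0.61 ± 0.03 on Gabra6, 0.27 ± 0.04 on Slc1a6), and Calb1 had 0.51 ± 0.03 on Gabra6 with -0.00 ± 0.04 on Slc1a6 (adjusted p = 0.975, limma). Of the granule genes, Cbln1 had the larger slope on the Purkinje reference (0.55 ± 0.05 against 0.17 ± 0.04), as did Zic1 (0.30 ± 0.05 against 0.11 ± 0.04), while Neurod1 had 0.33 ± 0.04 on it and 0.47 ± 0.03 on Gabra6. Cbln3 lay between them, with 0.54 ± 0.06 on Slc1a6 and 0.44 ± 0.05 on Gabra6. Barhl1 fell with Gabra6 (-0.16 ± 0.06) and rose with Slc1a6 (0.32 ± 0.07). The difference between a gene's 2 slopes was not tested. With Fat2 and Gng13 as the references, the sign of both slopes of Barhl1 turned (0.18 and -0.02) and Calb1 had 0.25 on Gng13, so these splits depend on the reference gene.

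**Figure D5:**
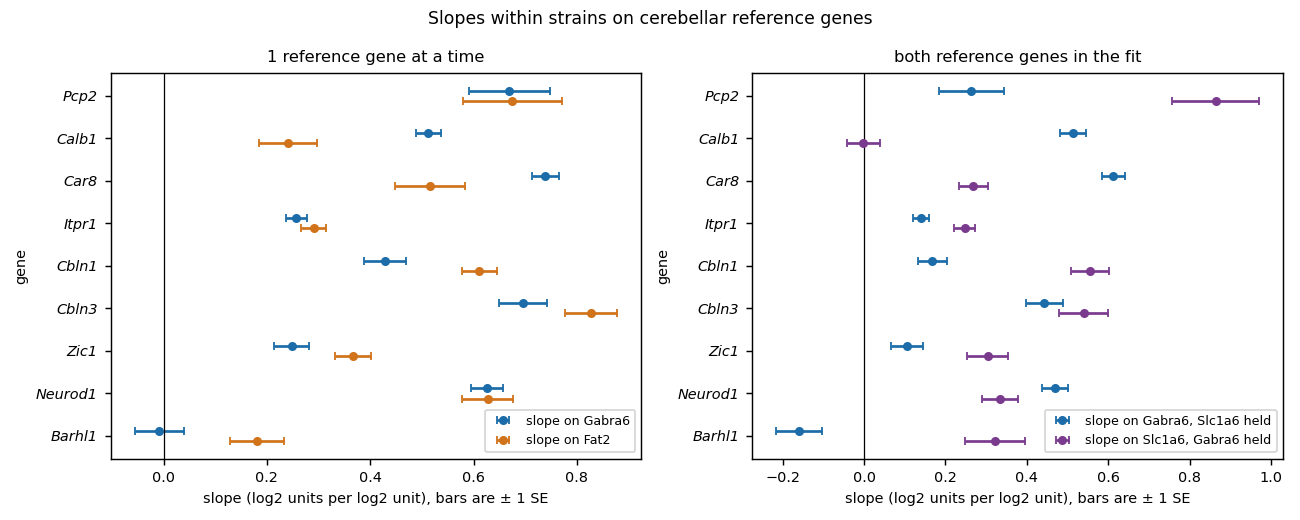
Slopes within strains (x axis, log2 units per log2 unit) for the 9 genes (y axis), with bars of 1 SE. Left, on Gabra6 and on Fat2 in separate fits; right, on Gabra6 and Slc1a6 in a joint fit. Car8 and Calb1 lie farther right on Gabra6 than on Fat2 and Slc1a6, and Pcp2 and Cbln1 farther right on Slc1a6 than on Gabra6 in the joint fit.

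With Gabra6 held, strain differences came out for more members: 8 of 9 passed the F-test over strains, against 41.3% of all genes. Car8 changed most, from an adjusted p of 0.108 to 2.84e-07 (limma F-test), with strain taking 0.639 of the variance left after Gabra6, where the median of all genes was 0.458. Calb1 went from 0.303 to 0.00032 and Neurod1 from 0.0997 to 0.00237. Pcp2 did not pass (adjusted p = 0.113, limma), while with batch as a covariate it did (adjusted p = 0.0174, limma), as did all 9 members, against 50.9% of all genes.

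At equal Gabra6, GK/FarMcwi had the highest adjusted mean of the 69 strains for Car8 (12.68), Calb1 (12.71) and Itpr1 (15.57). Its 3 animals stood at 12.42, 12.76 and 12.65 for Car8 with Gabra6 at 11.28, 11.31 and 11.10. BN/NHsdMcwi was lowest for Car8 (11.86), with Car8 at 12.60, 11.88 and 12.09 and Gabra6 at 12.20, 11.48 and 11.67. BN-Lx/Cub followed at 11.92, and it was lowest for Pcp2 (8.72) and Cbln1 (10.96). Its Gabra6 mean of 12.05 was the highest of the 69 strains, from animals at 13.06, 10.98 and 12.11, while its unadjusted Car8 mean was 12.45. An adjusted mean depends on the Gabra6 of the strain as well as on the member, and these 2 parts were not told apart.

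The count depended on the reference gene. With Fat2 held, 3 of 9 members passed (Itpr1, adjusted p = 0.0182; Cbln3, 0.0403; Barhl1, 0.0462; limma F-test), against 37.0% of all genes, and with the mean of 6 cerebellar genes held 7 passed (38.1% of all genes). With Gabra6 held, 2 members passed without the animals numbered 1 (18.0% of all genes), 5 without those numbered 2 (19.2%) and 4 without those numbered 3 (27.7%). There were 5 in the v5 table, against 57.1% of all genes. Car8 kept an adjusted p of 0.0110 or lower in each of the 3 fits without a replicate number and had 0.0604 with Fat2 held.

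Transcripts were read in a separate table, where 14 transcripts of 8 members were found, with none for Cbln3. Of these 7 passed the F-test over strains, against 14.4% of 45918 transcripts. The main calbindin transcript (NM_031984.2, mean 12.30) had an adjusted p of 0.434 (limma), while the predicted minor form (XM_039110854.1, mean 6.76) had R2 of 0.668 and 3.98e-08. Itpr1 had 1 of 3 transcripts called (NM_001270596.1, R2 0.527, adjusted p = 0.0081), Pcp2 2 of 2, and Car8 and Zic1 0 of 2 each. The split of reads between forms of a gene is an estimate made by the authors' counting tool. With batch as a covariate 3 of the 14 passed, against 20.0% of all transcripts. Without the animals numbered 1, and likewise without those numbered 3, 1 of the 14 did, against 5.03% and 8.38%.

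For each member the 3 genes that moved most like it within strains, over 192 animals, were taken by r from the genes that are not members. Car8 had Cnpy1 (0.94), Cep76 (0.94) and Gabra6 (0.93) as its nearest, and Neurod1 had Trmt9b (0.89), Arhgef33 (0.89) and Gabra6 (0.87). Calb1 was nearest to Gria4 (0.92), an AMPA receptor subunit, then Dipk2a and Fam107b (0.90 each). Pcp2 was nearest to the glutamate receptor Grm4 (0.84), Timp4 (0.83) and Homer3 (0.81). Itpr1 had Arhgef33 (0.86), Rgs8 (0.84) and Pde5a (0.84).

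Cbln1 and Cbln3 shared Il16 as the nearest gene (0.89 for both), with the homeobox gene En2 (0.88) also among the 3 of Cbln1. Cbln3 was next nearest to Arhgef33 (0.86) and Zfp385c (0.85). Zic1 was nearest to Zfp521 (0.78), Hpcal1 (0.77) and Barhl2 (0.77). Barhl1 had lower values throughout, with Csdc2 (0.64), Gatad2a (0.63) and Lrrc8a (0.61). With members counted, Cbln3 and Neurod1 were each the nearest of 20858 genes to the other (0.90), Car8 was the nearest to Calb1 (0.93), Cbln3 ranked 2nd for Itpr1 (0.84) and Neurod1 2nd for Zic1 (0.77).

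Other genes known from the same cells were set against Gabra6 in the same fit, in which 24.0% of all genes rose and 25.1% fell. Of 20 further Purkinje genes 16 rose with Gabra6 and 1, Stac, fell (median slope 0.24), and 4 had a strain effect, against 37.7% of all genes. Arhgef33 (0.77 ± 0.03) and Ppp1r17 (0.69 ± 0.04) had the steepest slopes, then Slc1a6 (0.47 ± 0.05) and the transcription factor Lhx1 (0.39 ± 0.04). Of 15 further granule genes besides Gabra6, 13 rose and none fell (median slope 0.25), led by Crtam (0.69 ± 0.03), Fat2 (0.50 ± 0.06), Chn2 (0.40 ± 0.02) and Etv1 (0.39 ± 0.02), and 6 of 16 had a strain effect, a share like that of all genes. The median slope over all genes was -0.01. Of 10 genes of other cerebellar cells 6 rose and none fell, with Tfap2b, a factor of inhibitory interneurons, at 0.37 ± 0.04 and Eomes, of unipolar brush cells, at 0.29 ± 0.07.

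Of the 20 genes of the IP3 and calcium pathway, Itpr1, Car8 and Calb1 included, 9 rose with Gabra6 and 4 fell, beside 24.0% of all genes that rose and 25.1% that fell. Besides the members, Pvalb, a calcium buffer, had a slope of 0.33 ± 0.02. The 4 that fell, named after their values were seen, were the receptors Itpr2 (-0.10 ± 0.03) and Itpr3 (-0.23 ± 0.05), the G protein subunit Gna11 (-0.20 ± 0.04) and the calcium pump Atp2b2 (-0.10 ± 0.02). Of the 9 genes of the cerebellin synapse list 4 rose and 3 fell, beside the same shares of all genes. The 3 that fell, again named after their values were seen, were the glutamate receptor family gene Grid1 (-0.20 ± 0.02), the cerebellin Cbln4 (-0.14 ± 0.03) and the neurexin Nrxn2 (-0.29 ± 0.05). With Fat2 as the reference 11 of the 20 pathway genes rose and 1 fell, and 3 of the 9 cerebellin synapse genes rose and 1 fell. Of all genes 5.83% rose with Fat2 and 9.11% had a slope either way.

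Markers of other tissue are read against the 25.1% of all genes that fell with Gabra6. All 8 striatal genes fell with Gabra6 (median slope -0.11), led by Adora2a (-0.22 ± 0.04) and Rgs9 (-0.16 ± 0.03). Of 10 forebrain cortex genes 7 fell and 1, Neurod6 (0.16 ± 0.03), rose. Of 8 thalamic genes 5 fell and 1 rose, the latter being Calb2, which is also on the granule list. Of 8 olfactory bulb genes 3 fell, a share near that of all genes, and 1, Eomes, rose. Of 13 hindbrain Hox genes none passed in either direction by limma at 5% FDR. Choroid plexus had 3 of 6 rising, the meninges 2 rising and 2 falling of 7, the 10 liver genes 1 rising (Ttr, also made by choroid plexus) and the 5 Y-linked genes 3 rising and 1 falling. On Fat2, none of the striatal, cortex, choroid plexus, meninges, liver and Hox genes passed. Of the thalamic, olfactory bulb and Y-linked genes 1 each rose with Fat2 and none fell, where 9.11% of all genes had a slope either way.

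These measures were also set against each member within strains, in 72 relations of 9 genes with 8 measures. The weakest relation that passed had r of 0.20 in size, and the share of all genes at or past that size is given beside each count. The striatal mean had r from -0.50 (Calb1) to -0.26 (Pcp2) with 8 members, each with an adjusted permutation p of 0.0336 or lower, and 0.01 with Barhl1. Of all genes 21.0% were at or past that size below 0 with the striatal mean, and 17.7% with the forebrain cortex mean. The forebrain cortex mean had r from -0.46 (Car8) to -0.26 (Cbln1) with the 7 members that passed, all but Zic1 and Barhl1. Choroid plexus passed with 5 members, at r of 0.20 (Cbln3) to 0.26 (Itpr1), against 5.84% of all genes at or past 0.20 above 0. The meninges passed with Zic1 (0.25) and Barhl1 (0.34), against 24.6%. Liver and Hox means passed with none, against 2.12% and 12.5% of all genes in either direction. The mean of the Y-linked genes had r of 0.48 with Calb1 (rho = 0.46, permutation p = 1e-05, adjusted 0.00012), 0.33 with Car8 (rho = 0.30, adjusted permutation p = 0.000589), 0.22 with Neurod1 (adjusted permutation p = 0.0455 by r, and 0.149 by rho = 0.15) and 0.39 with Gabra6, against 29.5% of all genes at or past 0.20. Without the 2 farthest animals r was 0.48 for Calb1, 0.32 for Car8 and 0.17 for Neurod1. The median of the library over genes had r of 0.37 with Pcp2 (rho = 0.35, adjusted permutation p = 0.0004), 0.37 with Barhl1 (rho = 0.38, 0.00036) and -0.25 with Calb1 (rho = -0.27, 0.0222), where 32.9% of all genes were at or past 0.20 above 0 and 28.1% below. The part of these measures in the shared movement of the members was not tested. Centring each library on its median left 8 members rising with Gabra6 and 32 pairs within strains past the test.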

How the data were processed

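The authors isolated total RNA from brain with QIAzol, used RNeasy kits to separate and purify the long fraction, depleted ribosomal RNA and made stranded libraries from that fraction, so short RNAs are not covered. For the v5 tables the authors trimmed reads with cutadapt 1.9.1, removed ribosomal reads with Bowtie2 2.3.4.3, aligned the rest with HISAT2 2.1.0 to strain-specific versions of rn6, estimated counts with RSEM, removed 1 factor of unwanted variation and applied the regularized log of DESeq2. The deposited v5 values are thus on a log2 scale that the authors had scaled across libraries. For the v7.1 table the processing notes name Bowtie2 2.4.5, HISAT2 2.2.1, StringTie 2.2.1 and RSEM 1.3.3 among the tools, while its steps, scaling and genome build are not given in the sources used here and its deposited values were read as log2 from their range. Whether a factor was also removed from the v7.1 table is not given in the sources used here, and its part in the shared movement of the members was not tested. The v7.1 table holds 5 values over 30, its 73 spike-in features were left out, and library medians ran from 8.18 to 8.42. No counts are given, so depth is unknown and the number of animals limits the precision.

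Strain, replicate number and batch came from the labels. For some libraries the title and the batch characteristic name different batches, and the characteristic was used. Libraries of 1 strain and replicate number were averaged to 1 animal (3 animals had several). The labels do not state more of their origin, so p-values measure the spread between these samples. Strain effects, slopes and contrasts were fitted over all genes in R 4.3.3 with limma 3.58.1 (trended eBayes, Benjamini-Hochberg adjustment, threshold 0.05), where an F-test covers all strains and a slope is fitted beside strain. Pair correlations used 100000 two-sided permutations of animals within strains, or of strains, in Python 3.11.15 with numpy 2.4.6 (10000 for alternatives). The fits were tested on simulated data. Members and lists were chosen with earlier results of these data known. All 9 members were named, with the 3 genes most like each by r and up to 4 genes of a list by size of slope on Gabra6; some genes that this rule names are not reported here. Alternatives covered batch, replicate number, left-out animals, repeat libraries, the v5, v6 and v7.1 reconstruction tables, centring, a filter on low genes, eBayes without trend and other reference genes. Promoter windows came from RefSeq (GRCr8). The strain means deposited beside each table and the other tables were not used here.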

Additional observations from a re-analysis of the deposited data

How the results depend on the processing

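Counts of members that moved with a reference fitted alone changed little in fits over all batches. In each alternative 8 members, 7 of 8 in the v7.1 reconstruction table and 9 with Fat2, had a slope that passed, and 27 to 33 pairs within strains passed. The genes with such a slope varied more: 10234 of 20858 with all animals, 5555 without the animals numbered 1, 6650 in the v5 table and 1900 with Fat2. In the joint fit 6 members passed on Gabra6 without the animals numbered 1 (43.7% of all genes). On Slc1a6 5 did in the v5 table (34.8%), and on Gng13 6 did (42.9%). Within single batches r was less even, above 0 in 5 to 9 of 9 batches for pairs of a Purkinje with a granule gene other than Barhl1. Its lowest value was -0.98, in a batch with 6 animals of 3 strains. The counts of strain effects were not stable, and each strain had 3 animals or fewer. For the alternatives below the cause of a move was not tested, except that leaving out a replicate number or filtering genes leaves fewer animals or genes. The reconstruction table holds 8 members, without Neurod1, and the filter on low genes leaves 8, without Barhl1. FXLE/LEXF was not fitted in the v5 table.

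Leaving out 1 replicate number gave 0 to 6 members and 2969 to 7389 genes with a strain effect (3 and 7863 with all animals). Within HXB/BXH it gave 0 to 2 members and 1652 to 3948 genes, within FXLE/LEXF 85 to 2330 genes, and within the classic strains 0 to 5 members and 1065 to 3520 genes. Genes with a slope on Gabra6 numbered 5555 to 10154, and those with a joint slope on Slc1a6 7982 to 12162. With Gabra6 held, 2 to 8 members and 3748 to 8139 genes passed. Transcripts called ran from 2187 to 6200, with 1 to 6 of the members. The progenitor contrast called 193 to 1344 genes (959 with all animals). Its differences ran from -0.24 to 0.36 for Car8, -0.051 to 0.44 for Calb1, -0.23 to 0.40 for Cbln3, -0.11 to 0.57 for Neurod1 and -0.11 to 0.045 for Itpr1. The slope of Barhl1 on Gabra6 ran from -0.030 to 0.015 and the joint slope of Calb1 on Slc1a6 from -0.040 to 0.040. The r of Car8 and Barhl1 within strains ran from -0.10 to 0.049, and that of Calb1 and Barhl1 over strain means from -0.16 to 0.073.

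Replicate numbers did not pair animals: deviations of animals with the same number in different strains had a mean r of 0.012, against -0.0056 for different numbers, with a lowest value of -0.72. With the replicate number as a block, 5 members had a strain effect, Itpr1 (adjusted p = 0.0461, limma), a Purkinje gene, and Cbln1 (0.0482) being gained, against 38.8% of all genes, the progenitor contrast called 411 genes, Car8 (-0.16) and Cbln3 (-0.15) turned in it, Barhl1 had a slope of 0.010 on Gabra6, and Car8 and Barhl1 had r of 0.022 within strains. The block left the other counts of member genes and the 32 pairs as they were, and transcripts were not fitted with it.

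With batch as a covariate HXB/BXH had 1 member and 6896 genes with a strain effect, the progenitor contrast called 53 genes, 3 member transcripts passed, and Barhl1 had r of -0.14 with Car8, -0.043 with Itpr1 and -0.0030 with Neurod1 over strain means. With the library of the lowest batch number in place of the mean, the contrast called 546 genes and Car8 had -0.14. Without LEW/Crl and LE/Stm, whose libraries were taken to go against their labels in earlier results, r of Car8 and Barhl1 over strain means was -0.0074. Without the 8 animals and LE/Stm that stood apart, an alternative chosen after seeing the data, the joint slope of Calb1 on Slc1a6 was 0.00097.

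In the v5 table the strain effect passed for 9 members, and within the classic strains for 8 members and 6170 genes. Gabra6 then called 6650 genes, and with it held 5 members passed. On Slc1a6 5 members and 6377 genes passed, with Calb1 at 0.10 and Zic1 at -0.0055, and Barhl1 had 0.054 on Gabra6 alone and 0.033 jointly. The progenitor differences were 0.17 for Pcp2, -0.016 for Calb1 and -0.061 for Car8. Barhl1 had r of 0.016 with Calb1 and 0.15 with Car8 within strains, and 0.55 with Calb1 over strain means. In the v6 table the strain effect passed for 4 members and 3367 genes within FXLE/LEXF and 1 member within the classic strains, the contrast called 404 genes, with Pcp2 at 0.058 and Itpr1 at 0.019, and Neurod1 and Barhl1 had r of -0.018 within strains.

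In the v7.1 reconstruction table of 84239 features, 5 members and 18243 genes had a strain effect, with 11270 genes in HXB/BXH, 1693 in FXLE/LEXF and 7366 in the classic strains, and 18312 with Gabra6 held. The joint slopes called 24108 genes on Gabra6 and 31566 on Slc1a6, where Calb1 had 0.061, and Barhl1 had 0.18 on Gabra6 alone. The contrast called 1907 genes, with -0.12 for Car8, 0.024 for Itpr1, 0.043 for Zic1 and 0.072 for Barhl1. Within strains Barhl1 had r of 0.062 with Calb1 and 0.20 with Car8. With the filter on low genes, 3587 genes had a strain effect (1518, 360 and 1278 in HXB/BXH, FXLE/LEXF and the classic strains), 4321 with Gabra6 held and 468 in the contrast.

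With Fat2 as the reference 1900 genes had a slope, Barhl1 among them at 0.18, and 3 members passed with it held. With the mean of 6 reference genes 2218 genes had a slope and Barhl1 had 0.18. With Fat2 and Gng13 in the joint fit 3289 genes had a slope on Fat2, with Barhl1 at 0.18, while on Gng13 Calb1 had 0.25 and Barhl1 -0.019.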
